A study of Homo sapiens with 17 samples.

Results

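The genes described here are genes of Karpas-422 cells named as long intergenic noncoding RNA genes, not all of which have that annotated type. They are the genes whose symbol is LINC followed by digits and whose read counts summed to at least 50 over the 6 Karpas-422 libraries. Of 2107 such symbols in the count files, 554 had at least 1 read in Karpas-422 and 147 passed the threshold. Of the 147 members, 49 have 1 annotated transcript and 98 have more than 1. Members were chosen by their summed counts in Karpas-422, so that level is given as a description. Around the threshold, LINC02803 and LINC01814 lay just inside with 51 counts each, and LINC00513 and LINC01444 just outside with 49 counts each.

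RNA-seq read counts per gene were compared between groups of 3 libraries. Karpas-422 cells treated with A-485 for 48 h were set against untreated Karpas-422 cells. WSU-DLCL2 cells came as 3 clones with a BCL11A knockout label, each its own clone, and were set against untreated WSU-DLCL2 cells, while WSU-DLCL2 cells treated with A-485 for 48 h were used for levels. Both lines are established human lines from diffuse large B cell lymphoma, and A-485 is a small molecule that blocks histone acetylation by p300 and CBP. BCL11A is a zinc-finger transcription factor of B cells. The dose, the vehicle and an unedited clone are not among the groups or labels used here. Apart from the clones, replicates are not said to be separate cultures; p-values then measure spread between libraries, which may be technical.

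Long noncoding RNAs are transcribed by RNA polymerase II and often capped, spliced and polyadenylated, but they are not known to be translated into a conserved protein. Some stay at their own locus and act on nearby genes, others act elsewhere in the nucleus or in the cytoplasm, and for most genes with a LINC number no function is established. p300 and CBP acetylate histones at enhancers and promoters, and lncRNA genes are often transcribed from or beside such elements.

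The depth per library, as counts in genes, was 7792197 to 8897051 in Karpas-422 with A-485, 6949770 to 8186582 in untreated Karpas-422 and 6689320 to 7086106 in WSU-DLCL2 with A-485, against 21233752 to 37286727 in the clones and untreated WSU-DLCL2. Reads without a unique alignment took 48.9% ± 0.070 of all reads in Karpas-422 with A-485 and 55.2% ± 0.582 in untreated Karpas-422, and reads outside genes took 8.69% ± 0.375 and 3.92% ± 0.538 (SD, n = 3 each). These shares move with the treatment, and their part in the results was not tested. All 8 B cell markers examined had counts in every group. The B cell markers summed to 10037 to 10424 CPM in Karpas-422 with A-485 and 9673 to 10301 CPM in untreated Karpas-422, most of it POU2AF1 and PAX5, while MS4A1 lay at 4.75 to 6.17 and 4.32 to 7.04 CPM. Single markers also differ between kinds of library within 1 line. MS4A1 lay at 39.2 to 42.9 CPM in WSU-DLCL2 with A-485, against 2254 to 3760 CPM in the clones and untreated WSU-DLCL2. PAX5 went the other way there, with 896 to 1135 CPM against 187 to 351 CPM. Of 4 T cell markers found, CD2 was at 0 and the sum lay at 527 to 562 CPM with A-485 and 633 to 674 CPM untreated, nearly all of it CD3G. The T cell sum did not exceed 0.328 CPM in any WSU-DLCL2 library. The myeloid list summed to 43.5 to 48.9 CPM with A-485 and 32.2 to 39.9 CPM untreated, and of the epithelial and fibroblast list EPCAM, KRT8, KRT18 and COL1A1 were at 0 in Karpas-422 while DCN lay at 177 to 193 CPM with A-485 and 381 to 428 CPM untreated. In bulk libraries, fewer cells of a type and less RNA per cell cannot be told apart.

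Untreated WSU-DLCL2 replicate 3 goes against its own labels: the title names the untreated line, whereas the entry for treatment names A-485. The title was followed. The library stands apart from replicates 1 and 2, with a chi-square per gene of 201 to 212 against 2.66 between those. BCL11A RNA was not lower in the clones, with 58.8, 69.6 and 51.9 CPM, than in untreated WSU-DLCL2, with 46.8, 45.7 and 73.5 CPM, so its level does not check the clones' label.

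The members that moved most in Karpas-422 are shown first by the start of their genes. Of the 147 members, 91 had an entry in the RefSeq promoter table (build GRCh38.p14), which gives 250 bases before to 50 after the annotated start. The first 3 of the largest rises with an entry are printed, followed by the first 3 of the largest falls, so that the start regions of genes that moved in opposite directions can be read side by side. LINC01089 lies at chr12:121802897-121803196 (minus strand), LINC01355 at chr1:23285469-23285768 (minus strand) and LINC01341 at chr1:246789367-246789666 (plus strand). Each sequence is written 5′ to 3′ on the gene's strand, and capitals mark matches to the motifs searched on either strand.
LINC01089: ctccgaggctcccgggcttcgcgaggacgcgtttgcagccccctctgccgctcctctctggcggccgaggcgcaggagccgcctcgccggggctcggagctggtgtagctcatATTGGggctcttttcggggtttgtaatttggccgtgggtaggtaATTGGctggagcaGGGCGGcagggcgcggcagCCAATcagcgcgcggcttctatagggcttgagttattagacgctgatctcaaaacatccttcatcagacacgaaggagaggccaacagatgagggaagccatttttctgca
LINC01355: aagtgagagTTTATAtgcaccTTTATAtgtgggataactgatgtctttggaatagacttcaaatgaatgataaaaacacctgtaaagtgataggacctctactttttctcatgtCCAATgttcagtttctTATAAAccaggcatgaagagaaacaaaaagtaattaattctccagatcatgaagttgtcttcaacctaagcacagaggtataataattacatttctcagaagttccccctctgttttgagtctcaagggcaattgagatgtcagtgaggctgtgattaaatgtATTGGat
LINC01341: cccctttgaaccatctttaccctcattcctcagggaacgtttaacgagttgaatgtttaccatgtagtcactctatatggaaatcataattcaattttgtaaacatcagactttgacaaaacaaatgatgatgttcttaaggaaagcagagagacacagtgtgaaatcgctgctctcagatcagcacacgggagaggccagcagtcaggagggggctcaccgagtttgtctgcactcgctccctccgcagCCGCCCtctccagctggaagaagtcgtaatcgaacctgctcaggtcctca

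The first 3 of the largest falls with an entry are LINC02134 at chr16:47965439-47965738 (plus strand), LINC01141 at chr1:20428745-20429044 (minus strand) and LINC02132 at chr16:85936125-85936424 (minus strand).
LINC02134: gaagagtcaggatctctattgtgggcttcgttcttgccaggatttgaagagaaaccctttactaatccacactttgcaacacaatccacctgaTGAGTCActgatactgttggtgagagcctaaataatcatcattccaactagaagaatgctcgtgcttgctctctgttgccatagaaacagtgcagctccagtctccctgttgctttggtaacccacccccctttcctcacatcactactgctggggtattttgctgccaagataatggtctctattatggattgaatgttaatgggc
LINC01141: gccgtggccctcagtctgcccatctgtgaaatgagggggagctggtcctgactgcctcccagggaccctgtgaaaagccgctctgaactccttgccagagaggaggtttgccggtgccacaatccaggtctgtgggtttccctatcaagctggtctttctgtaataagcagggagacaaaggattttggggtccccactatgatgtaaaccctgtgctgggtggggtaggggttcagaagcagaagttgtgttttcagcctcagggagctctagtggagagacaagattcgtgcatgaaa
LINC02132: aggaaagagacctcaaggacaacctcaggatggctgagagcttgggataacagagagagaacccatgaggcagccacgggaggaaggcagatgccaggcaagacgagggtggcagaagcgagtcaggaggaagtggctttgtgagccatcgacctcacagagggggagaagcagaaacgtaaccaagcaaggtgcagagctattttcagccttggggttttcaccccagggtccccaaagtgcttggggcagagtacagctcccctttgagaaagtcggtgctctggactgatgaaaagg

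The motifs searched, on both strands, were TATAAA (the TATA box), CCAAT (the CCAAT box), GGGCGG (the GC box), CACGTG (an E-box), TGACTCA (the AP-1 site), TGACGT (the core of the cAMP response element) and the core of the interferon-stimulated response element, and no matches overlap in the windows printed. LINC01089 held 3 CCAAT and 1 GGGCGG, LINC01355 held 3 TATAAA and 2 CCAAT, LINC01341 held 1 GGGCGG and LINC02134 held 1 TGACTCA. LINC01141 and LINC02132 held none of these letters in the window. Over all 35116 promoters of the table, TATAAA was found in 11.53%, CCAAT in 34.6%, GGGCGG in 45.0%, CACGTG in 7.26%, TGACTCA in 4.95%, TGACGT in 7.98% and the interferon element core in 3.57%. The number of CG dinucleotides was 24 in LINC01089, 0 in LINC01355 and 10 in LINC01341, against 2, 4 and 6 in LINC02134, LINC01141 and LINC02132, and its median was 10 over the 91 members and 14 over all promoters. Over the 35 members called up the median number of CG was 16, and over the 21 called down it was 6, a difference that was not tested. CCAAT was found in 54.3% of the members called up and 28.6% of those called down, GGGCGG in 51.4% and 33.3%. CACGTG was found in 5.71% of those called up and 14.3% of those called down, TGACTCA in 2.86% and 14.3%, TGACGT in 8.57% and 14.3%, TATAAA in 14.3% of both, and the interferon element core in 0 of 35 and 1 of 21. These differences were not tested. A match describes the letters only.

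With A-485, LINC genes of Karpas-422 moved in both directions. By the quasi-likelihood test of edgeR, adjusted by Benjamini-Hochberg over all 11846 genes tested, 57 of the 141 members tested were called up and 39 down at an adjusted p of 0.05, and 45 were not called. Over all genes tested, 71.4% were called, 37.6% up and 33.7% down, and the members' shares were 40.4% up and 27.7% down. The median log2 fold change was 0.15 over the members and 0.08 over all genes tested. The members' median stays 0.15 with the 1 member at 0 in A-485 put at its bound. That member lies below the median either way, so the median could not move. The 3 libraries of each group did not overlap for 58 members that were higher and 42 that were lower, where 74.7% of all genes tested did not overlap, 39.8% higher and 34.9% lower. An unadjusted p under 0.05 was found for 96 members and for 73.6% of all genes. At least 2-fold calls numbered 29 up and 23 down, against 22.7% and 11.8% of all genes. The filter on low counts, about 1.25 CPM in at least 3 libraries, left out LINC02965, LINC00562, LINC01783, LINC02709, LINC01814 and LINC02803. Of the 141 tested, 17 passed it in all 3 libraries of the A-485 group alone and 13 in those of the untreated group alone. The 17 include LINC01089, LINC00106, LINC01341, LINC02175, LINC01238, LINC01252 and LINC00665, named below among the largest rises. The 13 include LINC02134, LINC00868, LINC01871, LINC01141, LINC02132, LINC00462, LINC03049 and LINC03034, named below among the largest falls. Passing through 1 group favours a difference, though LINC01096 and LINC00652 passed in that way and were not called, and the counts are a description of the members and support nothing further. Scaling by library size alone puts the median of all genes at 0.49 on the log2 scale, a shift of 0.41, and the calls then split into 79 up and 27 down among members and 54.6% up and 19.3% down among all genes. Changes below are changes in counted reads relative to TMM scaling, and the members called with small changes depend on that scaling.

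**Figure D1:**
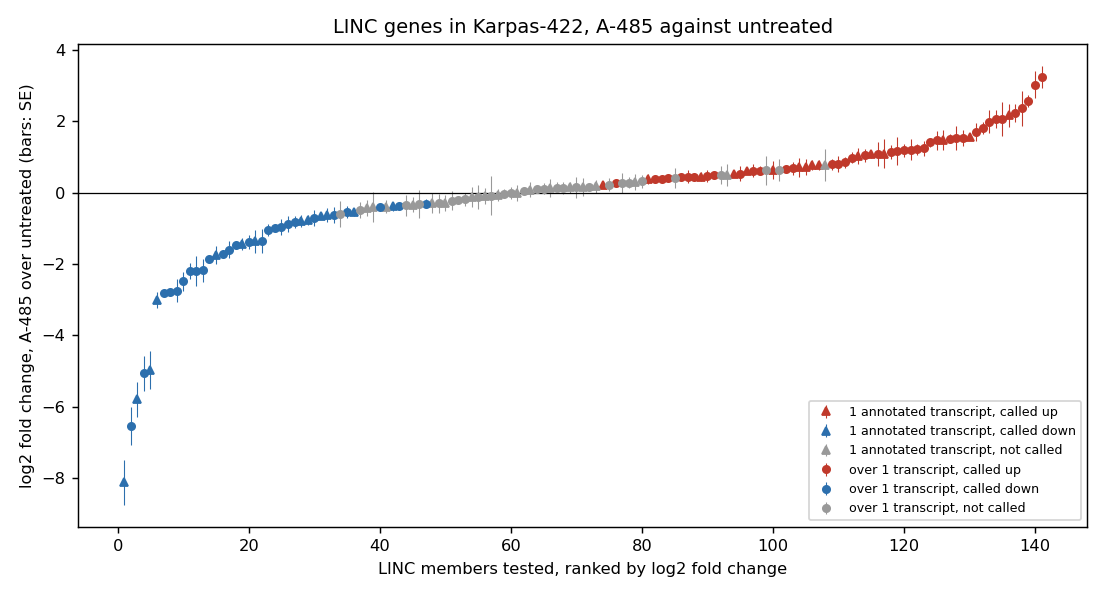
The log2 fold change of A-485 over untreated Karpas-422 is plotted for the 141 tested members in rank order, with bars for the standard error, triangles for genes with 1 transcript and circles for the others. The values run from 3.24 for LINC01089 to -8.11 for LINC02134, which was at 0 in every A-485 library, and 5 members lie apart at the low end.

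The rule that named the 10 largest rises and 10 largest falls required a call and no overlap between the groups. For these genes, the calls and the gaps between groups were thus fixed by the choice and are given as a description. The 10 largest rises were of genes whose mean level with A-485 ran from 2.36 CPM for LINC01341 to 107 CPM for LINC00342. LINC01089, a gene with 12 annotated transcripts on chromosome 12, had 8.24, 6.29 and 8.72 TMM-scaled CPM in the A-485 libraries, against 0.674, 1.21 and 0.508 CPM in the untreated ones. Every A-485 library lay above every untreated one, with a log2 fold change of 3.24 ± 0.30 (SE) and an adjusted p of 3.63e-07 by edgeR's quasi-likelihood test. Its exons overlap RHOF on the same strand and 2 unnamed genes on the opposite strand, and as no source used here gives the strand of counting, reads of overlapping genes cannot be told apart. LINC01355 had 49.9, 56.3 and 52.2 CPM with A-485, against 12.5, 7.59 and 6.26 CPM untreated, and overlaps no other gene's exons. The A-485 libraries again lay clear of the untreated ones, with a log2 fold change of 2.56 ± 0.17 (edgeR adjusted p = 5.31e-08). LINC00342, which lies beside the ankyrin-repeat gene ANKRD36C, had 96.8, 109.6 and 115.7 CPM with A-485, against 33.7, 15.2 and 18.6 CPM untreated. It had the highest level of the 10 largest rises, and its log2 fold change was 2.23 ± 0.26 (edgeR adjusted p = 0.00029).

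LINC00106 and LINC02968 lie in the pseudoautosomal region shared by the X and Y chromosomes. LINC00106 had 5.23, 3.64 and 4.97 CPM with A-485, against 0.944, 0.456 and 0.169 CPM untreated (log2 fold change 3.02 ± 0.38). LINC02968 had 17.9, 22.2 and 19.1 CPM with A-485, against 6.74, 5.31 and 4.57 CPM untreated (log2 fold change 1.82 ± 0.17). Neither pair of groups overlapped. LINC00665, described in several cancers as a lncRNA that binds microRNAs, had 4.79, 3.24 and 3.55 CPM with A-485, against 0.809, 0.911 and 1.18 CPM untreated (log2 fold change 1.99 ± 0.31). LINC01252 had 5.45, 6.19 and 5.38 CPM with A-485, against 1.75, 1.37 and 0.846 CPM untreated (log2 fold change 2.06 ± 0.26). Both stood apart between the groups at low levels. The rises of LINC01341, LINC02175 and LINC01238 rest on fewer reads, with 78, 114 and 94 counts over the 6 libraries and log2 fold changes of 2.36 ± 0.49, 2.16 ± 0.33 and 2.07 ± 0.48. LINC01341 had 1.89, 2.75 and 2.43 CPM with A-485, against 0.674, 0 and 0.677 CPM untreated. LINC02175 had 3.895, 3.44 and 2.94 CPM with A-485, against 0.809, 0.456 and 1.02 CPM untreated. Their groups did not overlap. LINC01238 had 2.56, 2.56 and 3.25 CPM with A-485, against 0.135, 1.52 and 0.339 CPM untreated, so that untreated replicate 2 came closest to the treated libraries.

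Among the members that fell, 5 were nearly silent with A-485. LINC02134, a gene with 1 transcript on chromosome 16, had 0 counts in all 3 A-485 libraries, against 3.77, 4.71 and 4.23 CPM in the untreated ones, which summed to 84 counts. Against a floor of 3 counts over the A-485 group it was at least 40.8-fold lower with A-485. LINC00868, with 4.31, 4.10 and 5.58 CPM in the untreated libraries, had 1 count over the A-485 libraries and 92 over the untreated ones, a ratio of 134-fold lower with a 95% exact counting interval of 23.5 to 5352. LINC01871, which elsewhere is known as a lncRNA of cytotoxic T and NK cells, had 3 counts with A-485 and 130 untreated, 63.1-fold lower with an interval of 21.1 to 310. Its untreated libraries lay at 6.74, 7.44 and 5.25 CPM. The T cell marker sum, nearly all of it CD3G, lay at 527 to 562 CPM with A-485 and 633 to 674 CPM untreated. Any part of it in the fall of LINC01871 was not tested. LINC01141 had 1 count in each A-485 library and 79 over the untreated ones, 38.4-fold lower with an interval of 12.7 to 190. Untreated replicate 1 was the highest for it, with 5.39 CPM beside 2.89 and 3.38 CPM. LINC02132 had 2 counts with A-485 and 52 untreated, 37.9-fold lower with an interval of 9.97 to 321. Its exons overlap a gene on the opposite strand, and reads of overlapping genes cannot be told apart. These 5 genes had 2.28 to 7.44 CPM in the untreated libraries and at most 0.304 CPM in any A-485 library. The intervals are Clopper-Pearson intervals and cover counting error only, since the counts are of reads and not of unique molecules.

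The largest fall in reads was that of LINC00877, a gene with 10 transcripts on chromosome 3 and the member with the most counts, 6462 over the 6 libraries. LINC00877 had 35.9, 37.3 and 40.6 CPM with A-485, against 266.9, 275.0 and 265.5 CPM untreated. The groups lay far apart and each was tight, with a log2 fold change of -2.83 ± 0.06 (edgeR adjusted p = 2.13e-13). The exons of LINC00877 overlap an unnamed gene on the opposite strand, and reads of overlapping genes cannot be told apart. LINC01991, also on chromosome 3 and on the strand opposite to its neighbour LPP, had 19.1, 20.3 and 21.0 CPM with A-485, against 132, 148 and 138 CPM untreated (log2 fold change -2.79 ± 0.08, edgeR adjusted p = 1.58e-12). LINC00462, which lies over the retinoblastoma gene RB1 on the opposite strand, had 1.56, 1.28 and 0.913 CPM with A-485, against 9.71, 11.7 and 8.97 CPM untreated (log2 fold change -3.01 ± 0.23). All 3 genes had every A-485 library below every untreated one. LINC03049 and LINC03034 fell by 2.75 ± 0.32 and 2.49 ± 0.27 on the log2 scale. LINC03034 had 2.003, 0.885 and 1.42 CPM with A-485, against 6.74, 7.59 and 9.98 CPM untreated. LINC03049 had 0.304 to 1.002 CPM with A-485 and 4.45 to 4.91 CPM untreated, and it shares exonic sequence with LINC02965, which was not tested.

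Beyond the 10 largest changes in each direction, the other 47 members called up had log2 fold changes between 0.21 for LINC02980 and 1.69 for LINC01409. The other 29 called down lay between -2.21 for LINC02099 and -0.32 for LINC00674.

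**Figure D2:**
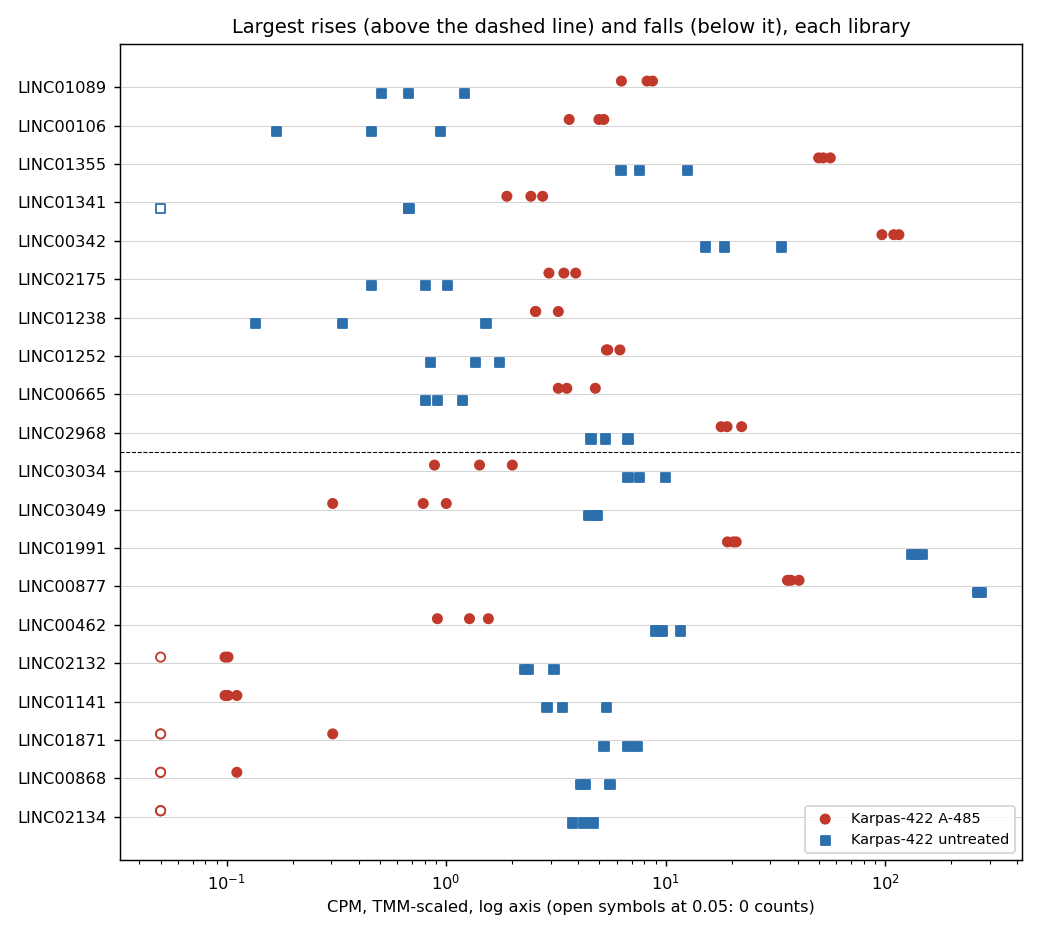
The TMM-scaled CPM of each Karpas-422 library are shown on a log axis for the 10 largest rises and 10 largest falls, with circles for A-485 and squares for untreated and open symbols for 0 counts. The groups do not overlap for these genes, as the rule that named them required, and LINC00877 has the highest untreated level and LINC00342 the highest A-485 level of those plotted.

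The members with the most reads changed less than these, LINC00877 apart. LINC02576, an antisense transcript by GENCODE type, had 100.1, 109.6 and 104.6 CPM with A-485, against 90.7, 88.4 and 83.1 CPM untreated. The groups did not overlap, and the log2 fold change was 0.26 ± 0.06 (edgeR adjusted p = 0.00239). With DESeq2 the call was lost (adjusted p = 0.0557). LINC02980 was higher by 0.21 ± 0.06 (edgeR adjusted p = 0.00917), also lost with DESeq2 (adjusted p = 0.174). LINC00938 had 90.9, 92.0 and 99.0 CPM with A-485, against 62.5, 62.9 and 59.9 CPM untreated, and rose by 0.60 ± 0.07. LINC02210, which shares exons with a readthrough transcript into CRHR1, had 71.3, 70.5 and 65.6 CPM with A-485, against 94.2, 90.3 and 87.3 CPM untreated. It was called down at -0.39 ± 0.07, and with library sizes alone its change was 0.015. Of the members not called, those with the most reads were LINC00265 (log2 fold change 0.03 ± 0.09), LINC03021 (0.16 ± 0.09), LINC00888 (0.09 ± 0.09) and LINC01234 (-0.20 ± 0.10). LINC00265 had 97.8, 95.7 and 88.3 CPM with A-485, against 76.7, 99.76 and 99.85 CPM untreated, and its groups overlapped. With library sizes alone LINC00265, LINC03021 and LINC00888 passed the threshold, at 0.44, 0.57 and 0.49.

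Genes with 1 transcript were set apart from the rest. Of the 47 single-transcript members tested, 16 rose and 13 fell, with a median log2 fold change of 0.08. Over all 1888 tested genes with 1 transcript, 35.8% were called up and 34.8% down, with a median of 0.06. Of the 94 members with more than 1 transcript, 41 rose and 26 fell, with a median of 0.26, against 38.0% up, 33.7% down and a median of 0.08 over all 9610 tested genes with more than 1 transcript. Leaving out 1 library put the single-transcript median at -0.01 to 0.06, with -0.01 without untreated replicate 2 or 3, and that of the rest at 0.22 to 0.32. The medians were 0.26 over the 51 members with 2 to 3 transcripts, 0.28 over the 24 with 4 to 6 and 0.31 over the 19 with more than 6. The difference between the single-transcript members and the rest was not tested. With DESeq2 9 single-transcript members were called up, in place of 16. The share of all genes called by DESeq2 in Karpas-422 is not given here, so that drop may be one of all genes.

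Of the single-transcript members with the most reads, LINC00324 changed most. It had 74.3, 78.8 and 76.0 CPM with A-485, against 26.6, 28.1 and 23.9 CPM untreated, with no overlap and a log2 fold change of 1.54 ± 0.08 (edgeR adjusted p = 1.37e-09). LINC03072 had 56.1, 56.2 and 53.6 CPM with A-485, against 27.9, 25.4 and 25.9 CPM untreated, and rose by 1.07 ± 0.09. LINC00528 rose by 0.53 ± 0.09, with 55.7 to 56.5 CPM with A-485 and 35.1 to 42.2 CPM untreated. In the other direction, LINC02947 had 28.2, 28.1 and 27.8 CPM with A-485, against 43.5, 43.3 and 44.7 CPM untreated, and fell by 0.64 ± 0.09. LINC02642 and LINC01058 were called down at -0.53 ± 0.11 and -0.39 ± 0.12. With library sizes alone LINC02642 lay at -0.13 and was not called, and LINC01058 lay at 0.018. Of the 5 members nearly silent with A-485, LINC02134, LINC01871 and LINC02132 have 1 transcript.

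Overlap with other genes' exons was recorded because such reads can belong to either gene. Of the 99 tested members without exonic overlap 36 rose and 30 fell (median 0.14), and of the 42 with overlap 21 rose and 9 fell (median 0.24), beside 37.6% up and 33.7% down over all genes tested (median 0.08). Of the 27 that overlap a gene on the opposite strand 12 rose and 7 fell (median -0.01). By GENCODE 29 type, 119 of the 147 members are lincRNA genes, 9 antisense and 2 protein-coding (LINC02693 and LINC03040). Transcribed pseudogenes are also among them (1 processed, 1 unitary and 4 unprocessed), LINC02210 and LINC00888 included. Of the members, 118 carry a LINC name in GENCODE 29 too. Exonic length ran from 0.243 to 15.578 kb with a median of 2.47 kb, and summed counts had a median of 276. The members held 0.230% of the Karpas-422 gene counts, with 34 members at 1000 counts or more and 29 under 100.

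The nearest protein-coding genes of the members were measured in the same comparison. For the 57 members that rose, 42 neighbours were tested, of which 22 rose and 13 fell, beside 37.6% and 33.7% of all genes tested. For the 39 that fell, 27 neighbours were tested, of which 8 rose and 11 fell, and for the 45 not called, 9 of 31 rose and 12 fell. LINC02132 lies on the strand opposite to IRF8, a transcription factor of the B lineage, which it does not overlap and which fell by 2.55 ± 0.05. LPP, the neighbour of LINC01991, had 2.45, 1.77 and 2.43 CPM with A-485, against 6.07, 11.995 and 12.016 CPM untreated (log2 fold change -2.15 ± 0.28). ANKRD36C, beside LINC00342, had 9.24, 9.14 and 10.95 CPM with A-485, against 1.48, 1.37 and 2.88 CPM untreated (2.38 ± 0.24). These 3 neighbours moved the same way as the member, with no overlap between the groups for any of them. CTC1, a telomere maintenance gene beside LINC00324, rose by 1.46 ± 0.09. RYBP, a Polycomb component beside LINC00877, fell by 0.45 ± 0.06, a smaller change than the member's. The opposite held for others: SLC25A6 beside LINC00106 fell by 0.61 ± 0.06, SCCPDH beside LINC01341 fell by 0.65 ± 0.05, and METTL2B beside LINC03072 fell by 1.03 ± 0.08. RB1, which LINC00462 lies over, was not called, at 0.04 ± 0.06. RHOF was not tested.

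Other noncoding genes of the same libraries give the setting. Of 17 tested lncRNA genes without a LINC number, 10 rose and 5 fell, with a median of 0.47. MALAT1, known as an abundant nuclear lncRNA, had 103, 113 and 120 CPM with A-485, against 7.01, 12.3 and 9.31 CPM untreated (log2 fold change 3.56 ± 0.14). In the same libraries RPL13A lay at no more than 0.432 CPM and ACTB at 3.20 to 18.7 CPM, so counted reads may not follow RNA abundance. Any part of this in the fold changes was not tested. NEAT1, the scaffold of paraspeckles, rose by 1.98 ± 0.06, and KCNQ1OT1, an imprinted antisense RNA, by 2.02 ± 0.08. PVT1, which lies beside MYC, fell by 1.16 ± 0.11. Of 24 tested snoRNA host genes, 6 rose and 13 fell (median -0.56), SNHG16 by 1.72 ± 0.16. Of 17 tested microRNA host genes, 6 rose and 6 fell (median 0.31), and MIR142HG, the host of miR-142, was called up at 2.23 ± 0.23. Of 333 tested genes named -AS1, 47.7% rose and 19.8% fell (median 0.43).

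**Figure D3:**
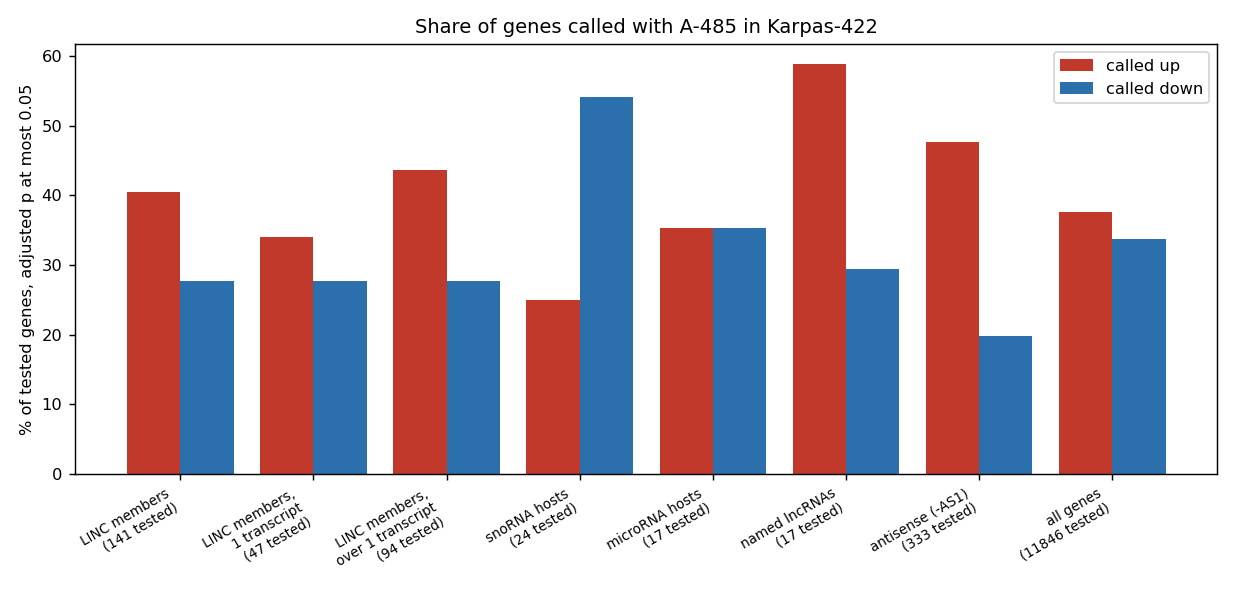
Bars give the share of tested genes called up and down with A-485 in Karpas-422 at an adjusted p of at most 0.05, for the LINC members, their single-transcript and other members, the other noncoding lists and all genes. The members stand at 40.4% up and 27.7% down beside 37.6% and 33.7% for all genes, and the snoRNA hosts are the list with more falls than rises.

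Levels per length put other members first, as an order of counted reads. Reads without a unique alignment, 48.9% ± 0.070 in Karpas-422 with A-485 and 55.2% ± 0.582 untreated (SD), stayed out of the gene counts. RPL13A lay at no more than 0.432 CPM in these libraries, so the order may not be one of RNA abundance. In CPM per kb of exon, without TMM scaling, LINC02576 was the highest with A-485 in Karpas-422, at 106 ± 4.39, ahead of LINC02947 at 59.9 ± 0.530 (SD, n = 3). In untreated Karpas-422, LINC02947 at 70.7 ± 2.76, LINC01991 at 70.4 ± 2.35 and LINC02576 at 66.9 ± 5.19 came first, and their ranges over libraries overlapped. In WSU-DLCL2 with A-485, LINC00342 at 47.7 ± 2.88 led and LINC01806 followed at 27.04 ± 1.02. In the clones LINC00487 (27.3 ± 12.4), LINC03034 (20.7 ± 7.41) and LINC00426 (20.2 ± 6.34) overlapped. In untreated WSU-DLCL2, LINC00487 was at 36.3 ± 7.21 and LINC00426 at 23.1 ± 2.10, with no overlap between them.

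The members' summed levels were lower in the WSU-DLCL2 libraries, which their choice by level in Karpas-422 in part fixes. The clones and untreated WSU-DLCL2 libraries also differ in kind from the others: ACTB lay at 3.20 to 18.7 CPM in Karpas-422 and 23.4 to 31.9 CPM in WSU-DLCL2 with A-485, against 3432 to 9994 CPM in the clones and untreated WSU-DLCL2. RPL13A lay at 0.116 to 0.432 CPM in Karpas-422 and 0.149 to 0.897 CPM in WSU-DLCL2 with A-485, against 806 to 1169 CPM in the clones and untreated WSU-DLCL2. In the same order of libraries, LCP1 went the same way, with 5.40 to 6.99 and 10.5 to 13.1 CPM against 3507 to 6199 CPM. TOP1 went the other way, with 7038 to 8367 and 2113 to 2303 CPM against 278 to 408 CPM. Between Karpas-422 and those 6 libraries, the line cannot be told apart from the kind of library. Summed over the members, levels lay at 2544 to 2568 CPM in Karpas-422 with A-485, 1968 to 2117 CPM in untreated Karpas-422, 1845 to 1944 CPM in WSU-DLCL2 with A-485, 816 to 1008 CPM in the clones and 889 to 949 CPM in untreated WSU-DLCL2. Of the 147 members, 136, 131, 104, 81 and 84 had a mean of at least 1 CPM in those groups. With A-485, 100 members lay higher in every Karpas-422 library than in every WSU-DLCL2 one, 23 lay lower and 24 overlapped. Members at 0 in all 9 WSU-DLCL2 libraries numbered 13, led by LINC03021 with 1910 counts in Karpas-422, LINC00355 with 588 and LINC01802 with 531. A count of 0 over those 9 libraries allows up to 0.0142 CPM, and over the WSU-DLCL2 libraries with A-485 alone up to 0.146 CPM. LINC01234, with 1442 counts in Karpas-422, had 1 count in 1 WSU-DLCL2 library with A-485 and 2 counts in 1 untreated one.

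LINC00665 had the opposite order between the lines. LINC00665 had 5.52, 3.71 and 4.07 CPM in Karpas-422 with A-485, against 178, 157 and 162 CPM in WSU-DLCL2 with A-485 and 25.7 to 86.6 CPM in untreated WSU-DLCL2. LINC00342 had 112, 125 and 133 CPM in Karpas-422 with A-485 and 117, 126 and 132 CPM in WSU-DLCL2 with A-485, and these overlapped. LINC00877 had 17.5, 17.4 and 19.95 CPM in WSU-DLCL2 with A-485, and 11.48, 11.02 and 24.7 CPM in untreated WSU-DLCL2, where the groups overlapped. LINC03034 had 1.49, 1.83 and 1.64 CPM in WSU-DLCL2 with A-485, against 26.1, 27.1 and 8.90 CPM in untreated WSU-DLCL2. WSU-DLCL2 with A-485 lay above every untreated WSU-DLCL2 library for 80 members and below for 9. That pair was not tested, since the A-485 libraries differ from the untreated ones in depth and in the share of reads in the files' summary lines, which was 69.4% to 70.2% with A-485 against 27.3% to 29.7% in the clones and untreated libraries, and kind of library and treatment cannot be told apart. LINC02968, LINC00106 and LINC00685, the 3 pseudoautosomal members, had 0 counts in all 6 libraries of the clones and untreated WSU-DLCL2 and counts in the other 9 libraries. Of 41 pseudoautosomal genes, 1 had a count in those 6 libraries and 29 had one in the other 9.

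**Figure D4:**
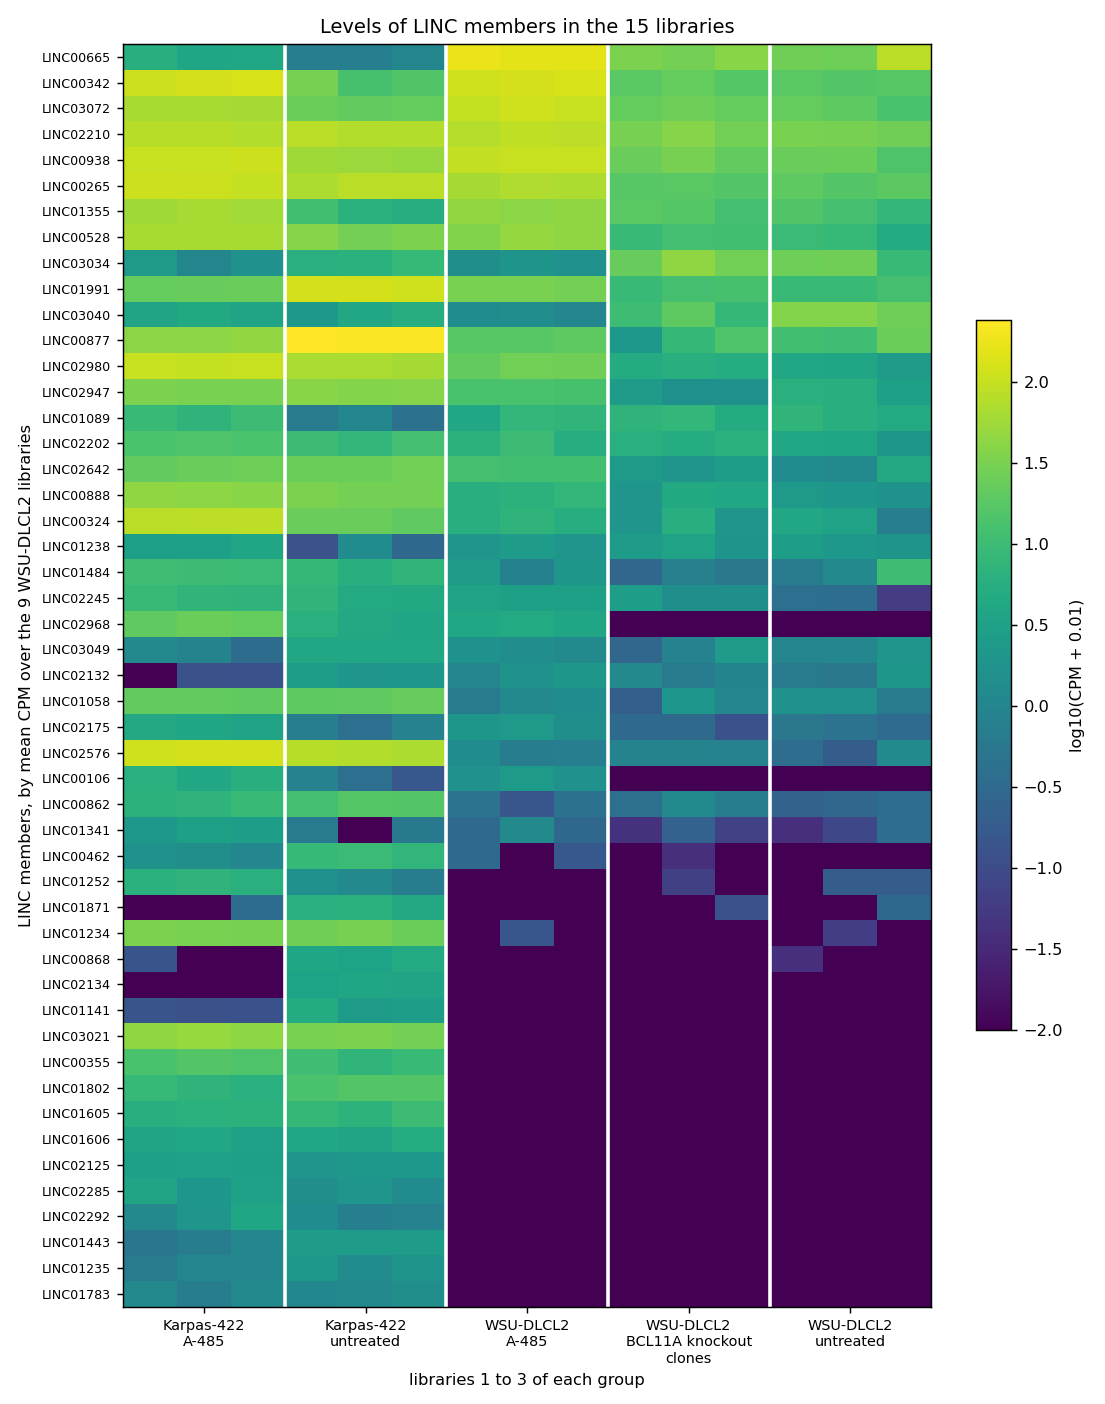
Colours give log10(CPM + 0.01), without TMM scaling, in each of the 15 libraries for the named members and those at 0 in WSU-DLCL2, ordered by mean CPM over the WSU-DLCL2 libraries. The block at the foot is dark in the 9 WSU-DLCL2 libraries, and LINC02968 and LINC00106 are dark in the 6 libraries of the clones and untreated WSU-DLCL2.

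In the clones labelled BCL11A knockout, no member was called. Of the 104 members tested, 0 passed an adjusted p of 0.05 by edgeR's quasi-likelihood test, as did 0.0% of 16152 genes, and 7 members had an unadjusted p under 0.05, against 6.92% of all genes. The groups did not overlap for 8 members that were higher in the clones and 5 that were lower, where 7.96% and 8.51% of all genes did so. The median log2 fold change was 0.13 over the members and -0.01 over all genes. DESeq2 called 1 member up and 2 down (1.58% of all its genes), and edgeR without untreated replicate 3 called 2 up and 1 down (2.11% of all genes).

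LINC02245 had 2.84, 1.49 and 1.52 CPM in the clones, against 0.383, 0.380 and 0.046 CPM in untreated WSU-DLCL2. All 3 clones lay above the untreated libraries, at a log2 fold change of 2.76 ± 0.63 (edgeR adjusted p = 0.342), with an adjusted p of 0.00160 by DESeq2 and 0.0486 by edgeR without untreated replicate 3. LINC02947 had 2.502, 1.52 and 1.59 CPM in the clones, against 6.16, 5.89 and 3.06 CPM untreated, at -1.43 ± 0.38 (edgeR adjusted p = 0.407). Its adjusted p was 0.0265 by DESeq2 and 0.0339 by edgeR without untreated replicate 3. LINC03040, typed protein-coding in GENCODE 29, had 10.4, 19.6 and 8.48 CPM in the clones, against 37.7, 37.7 and 26.1 CPM untreated, at -1.40 ± 0.35 (edgeR adjusted p = 0.372, DESeq2 0.0148). The groups of all 3 genes did not overlap. LINC02099 had 7.47, 5.62 and 5.34 CPM in the clones, against 2.18, 1.28 and 11.9 CPM untreated, at 0.28 ± 0.80 (edgeR adjusted p = 0.955). Without untreated replicate 3, its highest untreated library, it was called at 1.83 ± 0.30 (edgeR adjusted p = 0.0434). LINC00862 and LINC02202 were higher in the clones by 1.44 ± 0.49 and 0.76 ± 0.33 and were not called in any fit run. LINC01484 had 0.271, 0.787 and 0.549 CPM in the clones, against 0.648, 1.14 and 10.47 CPM untreated, at -2.90 ± 1.13, and untreated replicate 3 alone lay far from the other 5 libraries.

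**Figure D5:**
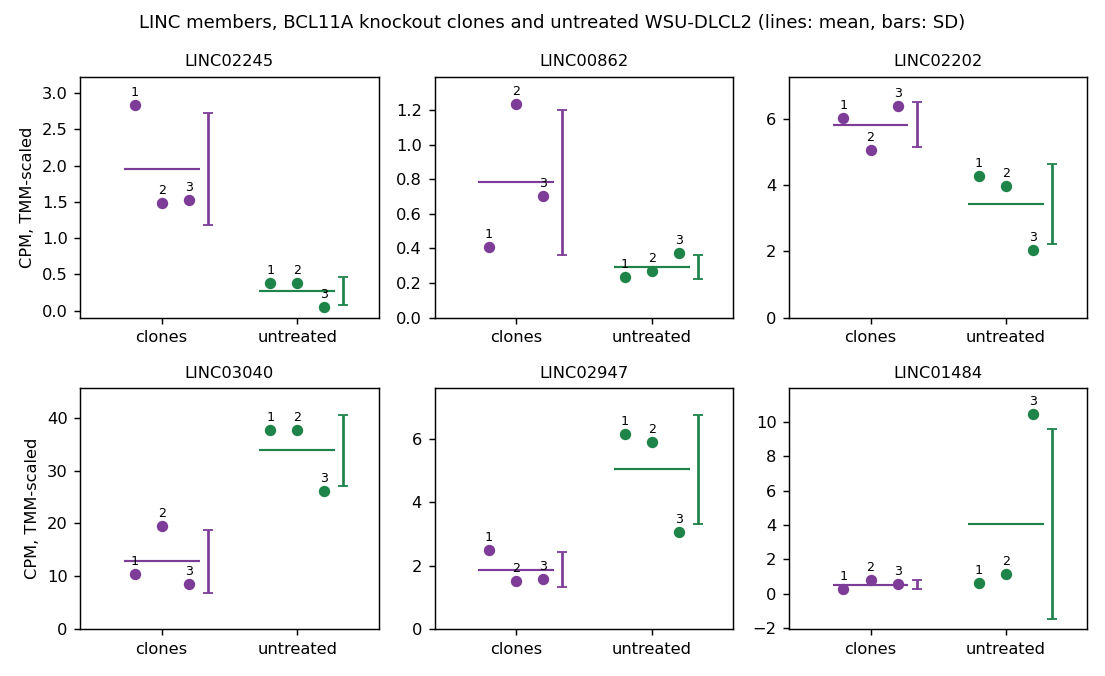
The TMM-scaled CPM of 6 members are plotted for the 3 clones and the 3 untreated WSU-DLCL2 libraries, numbered, with lines for the mean and bars for the SD. LINC02245 lies at 1.49 to 2.84 in the clones and at most 0.383 untreated, and untreated replicate 3 stands at 10.47 for LINC01484.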

How the data were processed

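RNA-seq of Karpas-422 and WSU-DLCL2 gave 15 count files, deposited by the authors as reads per gene (17 sample records, 3 of them runs of 1 library that share a file). STAR 2.5.3a, RSEM and the build GRCh37 (hg19) are named by the submitters' processing notes. No counter, annotation, kit or strand is stated there or in the labels. The deposited counts are whole numbers and were used as raw counts; the 5 summary lines of each file (60.9% to 70.2% of reads in the Karpas-422 and WSU-DLCL2 A-485 libraries, 27.3% to 29.7% in the others) stayed out of library sizes and tests. No pair of replicates agreed within sampling noise (lowest chi-square per gene 1.20).

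Symbols came from a gene name table by Ensembl identifier. Gene types, transcripts, exonic lengths and neighbours came from GENCODE 29, which is on GRCh38, so no coordinates of it are given. Promoters are RefSeq's, on GRCh38.p14.

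Karpas-422 with A-485 against untreated, and the clones against untreated WSU-DLCL2, were each fitted alone with edgeR 4.0.16 in R 4.3.3: TMM, filterByExpr (minimum count 10), robust quasi-likelihood fits, two-sided tests and Benjamini-Hochberg adjustment over all genes kept. SE are the log2 fold change over the square root of F. CPM of these comparisons are TMM-scaled; levels across groups are not. The steps were tested on simulated data. Alternatives were DESeq2 1.42.0, library sizes alone, no filter, a replicate block, other member thresholds, up to 2 transcripts as the single-transcript set, and leaving out each library. Another 3 were chosen after seeing the data: GENCODE 29 symbols, members without exonic overlap, and members without the pseudoautosomal ones.

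Named members are the up to 10 largest rises and 10 largest falls among called members with no overlap and at least 2 CPM in the higher group; the 6 with most counts; the 4 not called with most counts; the 3 with the smallest p per direction in the clones; and the 8 single-transcript members with most counts. CTC1, METTL2B and the T cell, B cell and other marker genes, and LINC02099, LINC01096, LINC00652, LINC01409, LINC00674, LINC00355, LINC01802, LINC01806, LINC00487 and LINC00426, were named outside this rule, after their values were seen. The members and lists were chosen with earlier results of these data known.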

Additional observations from a re-analysis of the deposited data

How the results depend on the processing

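In Karpas-422 the count of members called up was 57 and was 44 with DESeq2, 54 without a filter, 79 with library sizes alone, 36 among members without exonic overlap (fewer genes) and 49 to 56 with 1 library left out; members called down were 39, against 35, 38, 27, 30 and 37 to 42. Except for library sizes alone, the shares of all genes called in these Karpas-422 fits are not given here. The changes in count may thus be those of all genes. The median log2 fold change was 0.15, and 0.14 to 0.20 with 1 library left out. With library sizes alone the medians were 0.56 for all members, 0.49 for single-transcript members and 0.67 for the others, which follows the shift of all genes. Single-transcript members called up were 16, against 9 with DESeq2, 27 where the set took in genes with 2 transcripts, and 11 to 16 with 1 library left out; called down they were 13, against 21 with the wider set and 12 to 13. Their median was -0.01 to 0.06 with 1 library left out. Members with more than 1 transcript had a median of 0.26, 0.38 with the narrower set and 0.22 to 0.32 with 1 library left out. LINC02210 and LINC01058 changed sign with library sizes alone, at 0.015 and 0.018. In the clones 0 members were called, against 1 up and 2 down with DESeq2 and 2 up and 1 down without untreated replicate 3; the cause was not tested. The replicate numbers did not pair the Karpas-422 samples (correlations of deviations 0.014, 0.059 and -0.041), and a replicate block gave 54 up, 38 down and a median of 0.15. For the clones no paired analysis was possible because clone numbers name clones.

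Depth limits the low members: 29 of 147 had under 100 counts over 6 libraries.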

Other observations

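LINC01278, a member on the X chromosome, had 384, 0 and 513 counts in clones 1 to 3, against 542, 604 and 368 counts in the untreated WSU-DLCL2 libraries. Of 9783 genes with at least 100 counts in each of the other 5 libraries, it was the only 1 at 0 in clone 2. The same rule found 1 gene at 0 in clone 3, NALF2 of 9803 genes, and none in the other 4 libraries. In Karpas-422 LINC01278 was higher with A-485, at a log2 fold change of 0.98 ± 0.16. It was chosen after its values were seen, and the cause of its absence in clone 2 was not tested.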
